A study of Mus musculus with 4 samples.

Results

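The 37 genes described here are imprinted genes, meaning genes of which mainly the copy inherited from 1 parent is transcribed. They were taken by symbol from a list, and all 37 were found among the 25239 gene symbols of the count tables. By textbook knowledge 22 are expressed from the paternal copy and 14 from the maternal copy, and Gnas gives products from both. They fall into 16 imprinted clusters or solitary loci, each steered by a region that is methylated in the germ line of 1 parent. The counts sum the reads of both copies, so they show how much RNA a gene gave and not which copy gave it.

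The libraries held polyadenylated RNA of mouse embryonic stem cells (mESC), the cultured equivalent of the early embryo's pluripotent cells. All cells had the genotype Ogt fl/fl, in which the gene for O-GlcNAc transferase is flanked by recombination sites. The Ogt iKO group (2 libraries) was kept for 6 days with 4-hydroxytamoxifen (4-OHT) and sorted for YFP, while the control group (2 libraries) was kept without 4-OHT. The labels do not name the recombinase or its driver, the YFP gate is described for the treated cells only, and no 4-OHT control with intact Ogt is described, so gate, ligand and loss of OGT cannot be told apart. Both groups grew on mitomycin C-treated mouse embryonic fibroblasts, which were to be removed by a sort on CD90.2 and CD326. The labels do not say whether replicates were separate cultures, so p values measure the spread between these libraries, which may be technical. The study addressed DNA methylation and transposon expression after loss of OGT, and imprinted genes are a classical readout of inherited DNA methylation.

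In imprinting, DNA methylation laid down in the egg or the sperm marks a germline differentially methylated region, and the mark is copied at each division. Where the egg-derived mark lies on a promoter, as at Peg3, Peg10, Mest, Nnat, Snrpn, Plagl1 or Zrsr1, the maternal copy is silent and the paternal copy is transcribed. Elsewhere the mark acts at a distance, through an insulator (Igf2-H19) or through a long non-coding RNA that silences neighbouring genes in cis (Airn, Kcnq1ot1). In mESC the marks are protected by the zinc-finger protein ZFP57 with TRIM28, and they are known to be lost in some cultures.

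RefSeq promoter sequences (GRCm38.p6) were found for 29 of the 37 genes. The 250 bases before the transcription start are printed for 6 of them, 5′ to 3′ on the strand of the gene, with each CG pair, the site of DNA methylation, in capitals. Nnat and Zrsr1 are shown because their promoters lie in an egg-methylated region and their RNA rose. Mest (the downstream of its promoters) and Plagl1 are shown because their promoters lie in such a region and their RNA did not pass the test. Ndn and Magel2 are neighbours whose RNA rose together. All 6 were thus chosen with their values known.
Nnat, chr2:157559828-157560077, plus strand: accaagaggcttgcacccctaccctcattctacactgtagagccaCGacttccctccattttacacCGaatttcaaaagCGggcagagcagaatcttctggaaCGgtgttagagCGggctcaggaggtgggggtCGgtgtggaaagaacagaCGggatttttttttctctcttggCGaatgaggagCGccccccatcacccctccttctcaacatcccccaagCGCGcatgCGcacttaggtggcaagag
Zrsr1, chr11:22971755-22972004, plus strand: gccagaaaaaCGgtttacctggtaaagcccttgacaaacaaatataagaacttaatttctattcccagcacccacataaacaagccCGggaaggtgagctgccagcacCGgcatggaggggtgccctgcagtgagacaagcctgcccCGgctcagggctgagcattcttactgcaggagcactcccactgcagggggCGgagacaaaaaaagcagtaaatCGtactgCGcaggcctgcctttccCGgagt
Mest, chr6:30737800-30738049, plus strand: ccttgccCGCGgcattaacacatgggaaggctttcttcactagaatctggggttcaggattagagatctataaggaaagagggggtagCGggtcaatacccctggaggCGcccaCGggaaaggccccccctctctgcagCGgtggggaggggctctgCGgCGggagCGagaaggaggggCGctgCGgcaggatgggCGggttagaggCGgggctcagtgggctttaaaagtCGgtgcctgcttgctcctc
Plagl1, chr10:13090582-13090831, plus strand: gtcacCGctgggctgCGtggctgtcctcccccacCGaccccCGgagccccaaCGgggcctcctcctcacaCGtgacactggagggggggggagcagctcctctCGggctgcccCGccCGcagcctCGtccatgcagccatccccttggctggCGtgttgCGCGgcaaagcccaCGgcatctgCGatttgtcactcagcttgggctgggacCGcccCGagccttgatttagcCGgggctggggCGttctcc
Ndn, chr7:62348027-62348276, plus strand: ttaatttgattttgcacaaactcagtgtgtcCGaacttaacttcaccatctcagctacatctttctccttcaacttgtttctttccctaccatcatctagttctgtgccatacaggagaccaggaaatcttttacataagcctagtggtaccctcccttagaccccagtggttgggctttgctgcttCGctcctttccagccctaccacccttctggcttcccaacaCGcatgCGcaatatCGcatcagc
Magel2, chr7:62376729-62376978, plus strand: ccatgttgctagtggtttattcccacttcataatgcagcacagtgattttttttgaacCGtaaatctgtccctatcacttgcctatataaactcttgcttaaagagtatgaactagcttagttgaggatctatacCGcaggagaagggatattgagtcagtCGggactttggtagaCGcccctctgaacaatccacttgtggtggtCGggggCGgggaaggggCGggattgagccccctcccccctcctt
These windows hold 12 CG pairs in Nnat, 8 in Zrsr1, 14 in Mest, 19 in Plagl1, 5 in Ndn and 7 in Magel2, against a median of 6 over 32851 promoter windows of the same length.

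The letters TGCCGC, to which ZFP57 binds when the CG is methylated, were searched on both strands of the windows. They occur in 2850 of the 32851 windows (8.68%) and in 6 of the 45 windows of imprinted genes (13.3%). Those 6 windows belong to 5 genes, namely Mest, Plagl1, Zdbf2, Meg3 and Zim1, and 2 of the windows are overlapping starts of Mest. In the Mest window printed above, the letters lie on the opposite strand 242 to 237 and 67 to 62 bases before the start, and in the Plagl1 window 90 to 85 bases before it. The Nnat, Zrsr1, Ndn and Magel2 windows hold no match. A core of the CTCF motif (11 of all windows, 0.0335%) and the YY1 letters AAGATGGC (514, 1.56%) occur in 0 windows of imprinted genes. A match is a description of the letters and was not tested as a binding site.

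The libraries held 14668489 to 16504204 counts. Ogt itself had 437 and 389 counts with 4-OHT, and 2963 and 3108 without it. Stem cell identity was visible in every library, with all 9 listed mESC markers detected, but their summed level was 2352 and 2673 CPM (counts scaled to a common library size with TMM factors) in Ogt iKO against 4313 and 4301 CPM in control, and 8 of 9 fell. Ogt iKO replicate 1 stood apart by its fibroblast RNA. The 25 fibroblast markers summed to 4431 CPM there, against 1644 CPM in Ogt iKO replicate 2 and 1918 and 2145 CPM in the controls, with 5 of 25 higher, 0 lower, and 0 of them at 0 counts in any library. For that reason results are also given without that library. Of 8 primitive endoderm markers 5 rose and 0 fell, and of 7 tested trophectoderm markers 5 rose and 1 fell, where 33.2% of all genes tested rose and 32.0% fell. Of the 5 primitive endoderm markers, Foxa2 and Sox17 passed the filter on low counts only through the Ogt iKO libraries, which set their direction, and 3 rose without them.

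Imprinted RNA rose more often than it fell in Ogt iKO, and the rise lay mostly among genes expressed from the paternal copy. Of the 37 genes 34 had enough counts to be tested, 18 rose and 5 fell (edgeR, adjusted p under 0.05 over 14525 genes). Among the 18, Dio3 passed the filter on low counts only through the Ogt iKO libraries, which set its direction, and 17 rose without it. Over all genes tested, 33.2% rose and 32.0% fell, or 65.3% in either direction. The lower calls were the less stable, with 1 in place of 5 when libraries were scaled by totals, 3 without control replicate 2 and 2 at an adjusted p under 0.01, while 16 to 19 genes were called higher under the alternatives run. The median log2 fold change was 0.54 over the 34 genes and 0.02 over all genes tested. The groups of 2 libraries did not overlap for 27 of the 34, against 83.2% of all genes tested, so separation as such was no more frequent here than elsewhere.

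Of the 19 tested genes expressed from the paternal copy, 13 rose, 1 fell and 5 were not called, and their median was 0.68 (log2). The rises ran from 0.50 (Impact) to 2.56 (Magel2) on the log2 scale, and 1 of the 13, Dio3, passed the filter on low counts only through the Ogt iKO libraries. Of the 14 genes expressed from the maternal copy, 4 rose, 4 fell and 6 were not called, with a median of 0.11. Those that rose were Cdkn1c, H19, Ascl2 and Zim1, and those that fell were Phlda2, Meg3, Trappc9 and Ppp1r9a. The difference between the classes was not tested, since the genes were listed with earlier results of these data known and genes of a cluster share their control. Without Ogt iKO replicate 1 the paternal median was 0.66 and the maternal median was -0.0046. The maternal median was -0.0012 without control replicate 1, so its sign rested on single libraries. Medians were also taken without genes listed as imprinted only in some tissues or isoforms. These were Grb10, Trappc9, Igf2r, Ppp1r9a and Asb4 of the maternal copy, and Dio3 and Mkrn3 of the paternal copy. The maternal median was then 0.44 and the paternal one 0.64, so most of the gap between the classes went with that choice of genes. Trappc9 and Ppp1r9a are among the 4 maternal genes that fell.

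**Figure D1:**
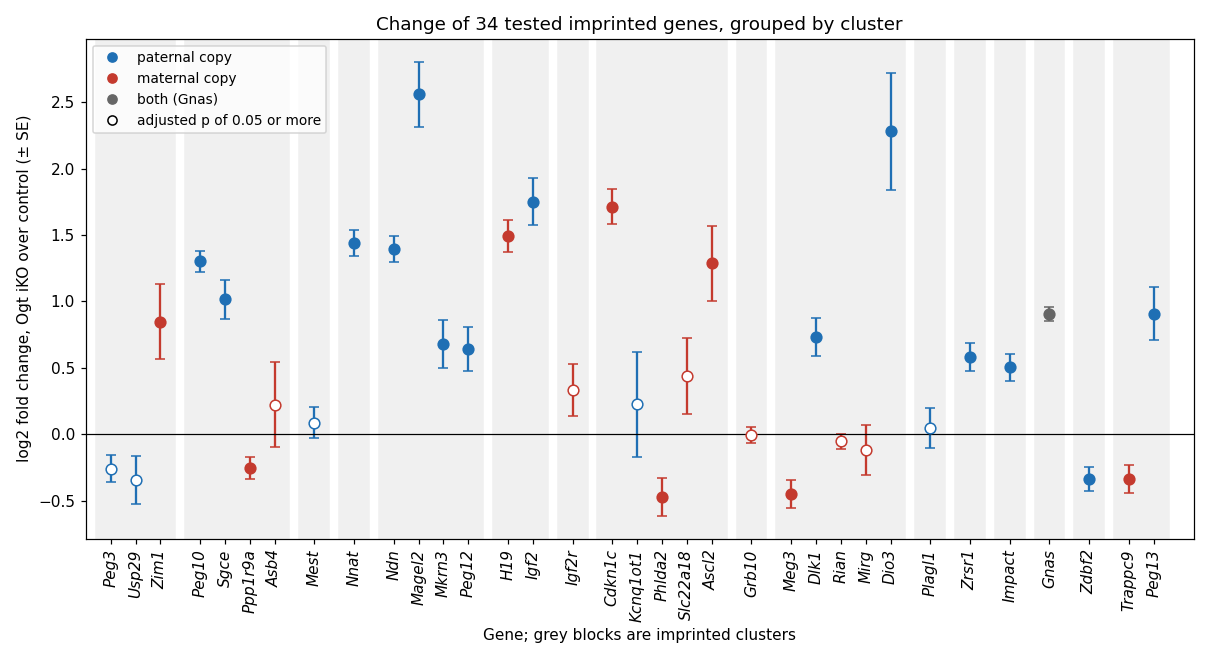
Log2 fold change of Ogt iKO over control (vertical axis, bars are SE of the edgeR fit of 2 against 2 libraries) for 34 tested imprinted genes, in grey blocks by imprinted cluster. Blue points are genes of the paternal copy, red of the maternal copy and grey Gnas, and open points did not pass the test. The highest are Magel2 at 2.56 and Dio3 at 2.28. Dio3, with 3 and 5 counts in control, passed the filter on low counts only through the Ogt iKO libraries.

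The genes were also divided by the parent whose copy carries the germline mark. Of 26 tested genes in clusters marked in the egg, 14 rose and 3 fell. Of 8 tested genes in clusters listed here as marked in the sperm (Igf2-H19, Dlk1-Meg3, Zdbf2), 4 rose and 2 fell. Among the 4 is Dio3, which passed the filter on low counts only through the Ogt iKO libraries. The placing of Zdbf2, which is among the 2 that fell, was not checked here. Of the 11 tested genes whose own promoter lies in an egg-marked region, 6 rose, 0 fell and 5 were not called, with log2 fold changes from -0.34 to 1.44. The 6 were Nnat, Peg10, Sgce, Peg13, Zrsr1 and Impact, and the 5 were Mest, Plagl1, Kcnq1ot1, Peg3 and Usp29. Genes of the paternal copy whose promoter is not itself such a region rose in 7 of 8 cases, or 6 of 7 without Dio3, whose direction the filter set, and Zdbf2 fell. Among all genes tested 33.2% rose and 32.0% fell.

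By level per length of exon, the most abundant imprinted RNAs in control were H19 (63.8 CPM per kilobase), Mest (58.0), Peg10 (56.5), Grb10 (35.3) and Phlda2 (32.9). In Ogt iKO the order was H19 (179 CPM per kilobase), Peg10 (139), Mest (61.6), Igf2 (53.2) and Gnas (49.6). The length is that of all annotated exons of a gene together, 11186 bases for Gnas and 2460 for H19, so the order depends on it. By CPM alone, Peg10 (376.5 in control and 927.6 in Ogt iKO) and Gnas (296.1 and 554.9) were above H19 (156.8 and 441.1). Some imprinted genes had few counts in either group. Kcnq1ot1 gave 0.0115 and 0.0134 CPM per kilobase in control and Ogt iKO over its long unspliced model, and Snrpn, Airn and Rtl1 were not tested.

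**Figure D2:**
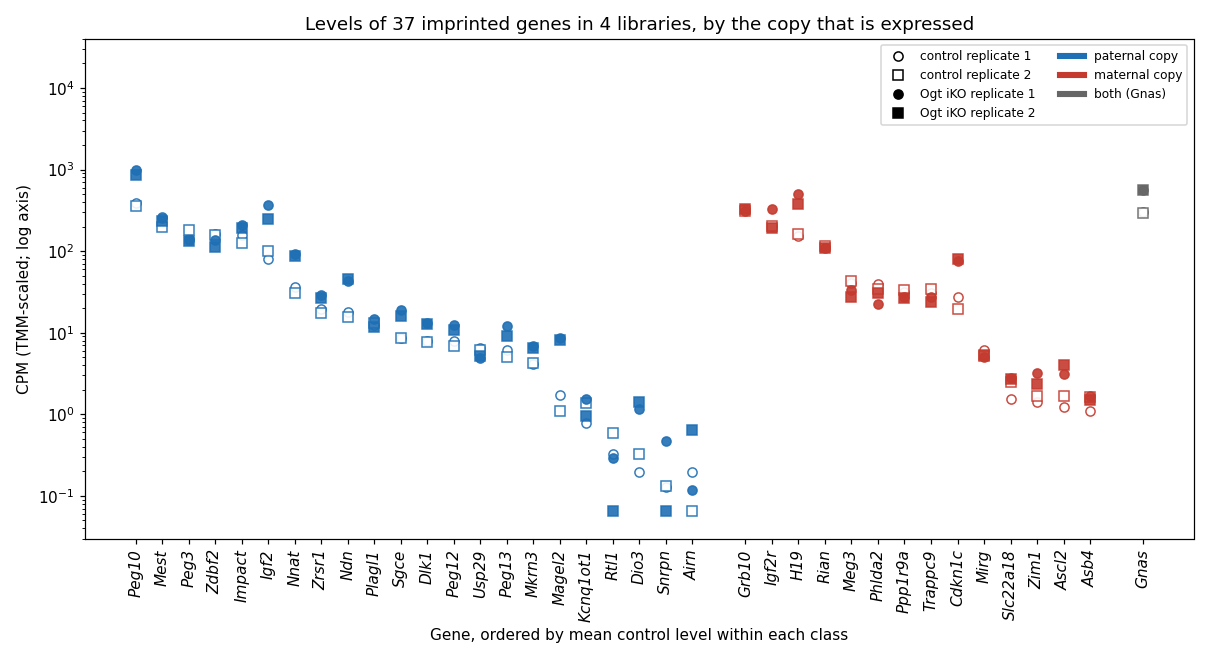
Level of each of the 37 genes in each library (CPM, TMM-scaled, log axis), split by the copy that is expressed and ordered by the mean control level. Filled symbols are the 2 Ogt iKO libraries and open symbols the 2 controls. Filled symbols lie clear above open ones for Peg10, Igf2, Nnat, Ndn, Magel2, H19, Cdkn1c and Gnas.

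The Snrpn cluster on chromosome 7, the counterpart of the human Prader-Willi region, holds 5 of the listed genes, all expressed from the paternal copy. The 4 that were tested rose, and Snrpn itself had too few counts to test. Magel2, which encodes a MAGE-family protein that works with ubiquitin ligases, lies at chr7:62376979-62381640 and had 148 and 128 counts with 4-OHT, and 27 and 17 without it. The treated libraries were far above the controls, with a log2 fold change of 2.56 with an SE of 0.25 (adjusted p 4.12e-05, edgeR), the largest among the imprinted genes. Its neighbour Ndn (chr7:62348277-62349928), which encodes necdin, a MAGE-family protein that restrains the cell cycle, had 736 and 707 counts against 280 and 240. Ndn rose by 1.39 (SE 0.098, adjusted p 9.13e-06, edgeR), from 16.9 CPM ± 1.73 to 44.3 CPM ± 1.79 (SD, n = 2).

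The other members of the cluster rose less. Mkrn3, a makorin RING-finger protein, had 117 and 102 counts against 64 and 65, a log2 fold change of 0.68. Peg12, a FRAT-family binder of GSK3, had 210 and 166 counts against 122 and 105, a log2 fold change of 0.64. Their adjusted p values were 0.010 and 0.00822 (edgeR), and each call was lost without 1 control library, that of Mkrn3 without replicate 1 and that of Peg12 without replicate 2. DESeq2 did not call Mkrn3 either. Within a library the ratio of Ndn to Magel2 fell, from log2 values of 3.35 and 3.78 in control to 2.31 and 2.46 in Ogt iKO, so the 2 neighbours did not rise in proportion.

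Snrpn, whose promoter holds the germline mark of the cluster, had 8 and 1 counts in Ogt iKO and 2 and 2 in control. Its exons overlap those of Snurf and a further gene model on the same strand over 27.3% of their length, and Snurf was listed at 0 counts in all 4 libraries. How reads shared by both were counted is not given in the sources used here, so the level of Snrpn is uncertain. The non-coding transcript Snhg14, which extends from this promoter, rose by 0.79 on the log2 scale (adjusted p 0.00472, edgeR). Ube3a, the nearest tested gene before the cluster, rose by 0.51.

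At the Peg10 cluster on chromosome 6 the divergent pair that shares an egg-methylated promoter rose together. Peg10 (chr6:4747306-4760517), a gag-pol gene of retrotransposon origin needed in the placenta, had 16953 and 13397 counts with 4-OHT, and 6046 and 5559 without it. Sgce (chr6:4674350-4747204), which encodes epsilon-sarcoglycan, had 324 and 247 against 132 and 134. The log2 fold changes were 1.30 (SE 0.078, adjusted p 4.52e-06, edgeR) for Peg10 and 1.01 (SE 0.14, adjusted p 0.000344, edgeR) for Sgce. The log2 ratio of Peg10 to Sgce was 5.51 and 5.37 in control and 5.71 and 5.76 in Ogt iKO.

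Ppp1r9a and Asb4, the listed maternally expressed genes further along the same cluster, were not called higher. Ppp1r9a, which encodes the actin-binding neurabin-1, had 469 and 412 counts with 4-OHT, and 482 and 511 without it, a log2 fold change of -0.26 with an SE of 0.086 (adjusted p 0.0277, edgeR). That call was lost with DESeq2, with library totals, and without Ogt iKO replicate 2 or control replicate 2. Asb4, an ankyrin-repeat and SOCS-box protein, had 29 and 23 counts against 17 and 25 and overlapped between the groups. Of the other genes within the span, Pon3 had a log2 fold change of 1.15 and rose, and Pon2 had 0.42 and was not called. Casd1, just before the cluster, rose by 0.78.

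Several small imprinted genes sit inside an intron of a larger gene, and guest and host gave different values. The difference within a pair was not tested beyond the ratios given here. Nnat, a small membrane protein at chr2:157560078-157562525 within Blcap, had 1596 and 1352 counts with 4-OHT, and 560 and 465 without it. Nnat rose by 1.44 (SE 0.097, adjusted p 7.19e-06, edgeR), from 33.3 CPM ± 4.15 to 90.3 CPM ± 4.38 (SD, n = 2), while its host Blcap had a log2 fold change of 0.16 and was not called. Zrsr1, a U2AF1-related splicing factor gene at chr11:22972005-22976496 within Commd1, had 496 and 414 counts against 306 and 269. It rose by 0.58 (SE 0.11, adjusted p 0.00142, edgeR), and Commd1 had 0.05 and was not called. Of the exon length of Zrsr1, 9.17% lies under Commd1 exons on the opposite strand.

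The third such pair is Peg13 in Trappc9 on chromosome 15, where host and guest are expressed from opposite copies. Peg13, a non-coding RNA at chr15:72805602-72810324, had 206 and 141 counts with 4-OHT, and 96 and 78 without it and rose by 0.91 (SE 0.20, adjusted p 0.0039, edgeR). Trappc9, a subunit of the TRAPP trafficking complex, had 466 and 365 counts against 470 and 522 and a log2 fold change of -0.34 with an SE of 0.11 (adjusted p 0.0194, edgeR). The fall of Trappc9 was not called without Ogt iKO replicate 2, without control replicate 2, or with library totals. The log2 ratio of Trappc9 to Peg13 moved from 2.29 and 2.73 in control to 1.18 and 1.37 in Ogt iKO.

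The Igf2-H19 locus on chromosome 7 holds H19, the highest of the listed genes when CPM were divided by the length of all annotated exons. H19, a long non-coding RNA of the maternal copy, and Igf2, a fetal growth factor of the paternal copy, are classically expressed from opposite copies through an insulator that binds CTCF. Here they rose together. H19 (chr7:142575530-142578146) had 8633 and 5850 counts with 4-OHT, and 2341 and 2491 without it, a log2 fold change of 1.49 with an SE of 0.12 (adjusted p 1.80e-05, edgeR). Igf2 (chr7:142650768-142666816) had 6218 and 3805 against 1233 and 1558, a log2 fold change of 1.75 with an SE of 0.18 (adjusted p 5.32e-05, edgeR). The log2 ratio of H19 to Igf2 was 0.92 and 0.68 in control and 0.47 and 0.62 in Ogt iKO, a difference of -0.25. Of the exon length of Igf2, 62.8% is shared with a further gene model on the same strand, and the antisense Igf2os rose too (2.41 on the log2 scale), so the level of Igf2 is uncertain.

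Both genes are strongly expressed in embryonic fibroblasts, and both were higher in Ogt iKO replicate 1, the library with the most fibroblast RNA. The rises were still called without it, at 1.27 for H19 and 1.44 for Igf2 (edgeR). Since the spread in that fit comes from the controls alone, its adjusted p for H19 (1.98e-12) is smaller than with all 4 libraries and is no sign of a firmer result. In the remaining treated library 20 of the 25 fibroblast markers were below both controls and 5 were above both, while in replicate 1 23 were above both. The 5 were Ccn2, Sparc, Pdgfrb, Twist1 and Lox, the markers that were called higher, and Ccn2 had 162 CPM in replicate 2 against 34.4 and 35.0 CPM in the controls. The part of fibroblast RNA in the rises of H19 and Igf2 was not tested. In bulk RNA, more cells that express a gene and more RNA per cell cannot be told apart.

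**Figure D3:**
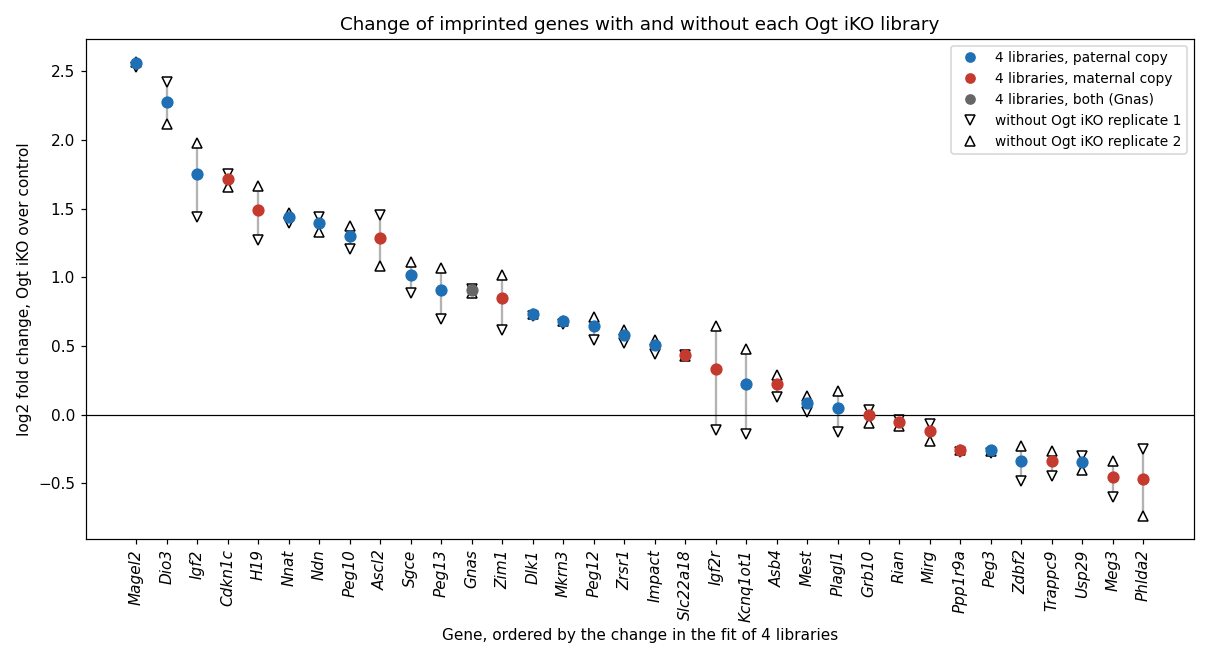
Log2 fold change of each tested imprinted gene (vertical axis) in the fit of 4 libraries (coloured points) and with 1 Ogt iKO library left out (triangles). Without replicate 1, Igf2 is at 1.44 and H19 at 1.27, while Igf2r crosses from 0.64 without replicate 2 to -0.11 without replicate 1.

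Igf2r, which encodes the receptor that clears IGF2 and is expressed from the maternal copy in most tissues, depended on that library. It had 5578 and 2942 counts with 4-OHT, and 3189 and 3140 without it, so 1 treated library was above and the other was level with the controls in counts. Its log2 fold change was 0.33 (SE 0.20, adjusted p 0.171, edgeR). Without Ogt iKO replicate 1 it was -0.11, and without replicate 2 it was 0.64 and called. Airn, the paternal antisense RNA of this locus, had 2 and 10 counts against 3 and 1, too few to test. Beyond the locus Pnldc1 fell by 0.66, and Slc22a3, with a log2 fold change of 2.12, passed the filter on low counts only through the Ogt iKO libraries.

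In the Dlk1-Meg3 cluster on chromosome 12, which is marked in the sperm, Dlk1 and Dio3 of the paternal copy rose and Meg3 of the maternal copy fell, while Rian and Mirg were not called. Dlk1 (chr12:109452485-109463336), a membrane protein of the Notch-ligand family, had 224 and 197 counts with 4-OHT, and 121 and 118 without it and rose by 0.73 (SE 0.14, adjusted p 0.00208, edgeR). Dio3, the deiodinase that inactivates thyroid hormone, had 20 and 22 counts against 3 and 5 and rose by 2.28 (SE 0.44, adjusted p 0.00195, edgeR). Dio3 passed the filter on low counts only through the Ogt iKO libraries, so its direction was set by that filter. Rtl1, a gene of retrotransposon origin, had 5 and 1 counts against 5 and 9 and was not tested.

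Meg3 (chr12:109540996-109571729), the first non-coding RNA of the maternal transcript series, had 579 and 430 counts with 4-OHT, and 633 and 666 without it. It fell to 73.1% of the control level, by 0.45 on the log2 scale (SE 0.11, adjusted p 0.00533, edgeR). With scaling to library totals, Meg3 was the single imprinted gene called lower. Rian, the snoRNA host downstream, had 1864 and 1704 counts against 1748 and 1750, or 96.4% of the control level, a log2 fold change of -0.05 (SE 0.057). Mirg, a microRNA host, had 86 and 83 counts against 94 and 80. The signs of Rian and Mirg turned with library totals. The log2 ratio of Meg3 to Rian, which are thought to be parts of 1 long transcript, went from -1.46 and -1.39 in control to -1.69 and -1.99, whereas that of Rian to Mirg overlapped between the groups. The log2 ratio of Meg3 to Dlk1 fell from 2.38 and 2.49 to 1.37 and 1.12.

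The Kcnq1ot1 cluster on chromosome 7 holds maternal growth restrictors, and these did not move together. Cdkn1c (chr7:143458339-143461059), which encodes the CDK inhibitor p57, had 1288 and 1226 counts with 4-OHT, and 423 and 303 without it. It rose by 1.71 (SE 0.13, adjusted p 1.42e-05, edgeR) and by 1.75 without Ogt iKO replicate 1. Phlda2 (chr7:143501545-143503145), which limits placental growth, had 384 and 477 counts against 610 and 525, a log2 fold change of -0.47 with an SE of 0.14 (adjusted p 0.0178, edgeR). The call of Phlda2 was lost without Ogt iKO replicate 1 (-0.25), without control replicate 1 and with library totals, and the value was -0.74 without Ogt iKO replicate 2. Of the exon length of Cdkn1c, 30.7% lies under a gene model of the opposite strand, so its count carries that uncertainty.

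Ascl2, a transcription factor of the trophoblast lineage in the same cluster, had 54 and 62 counts against 19 and 26 and rose by 1.28 (SE 0.28, adjusted p 0.00373, edgeR). The trophectoderm markers Krt8 and Krt18 rose in the same libraries, by 3.71 and 3.60 on the log2 scale, while Tfap2c fell by 2.28 and Elf5 was not tested. The 8 listed trophectoderm markers summed to 376 and 392 CPM in Ogt iKO against 130 and 118 CPM in control. Most of the Ogt iKO sum was Krt18 (239 and 243 CPM, against 22.2 and 17.3 in control) and Krt8 (89.9 and 101, against 8.66 and 5.87). Tfap2c had 17.6 and 17.6 CPM against 86.3 and 84.2, and Cdx2 was not called. Gata3, Eomes and Hand1 rose from low levels. The part of these markers in the rise of Ascl2 was not tested. Slc22a18, a solute carrier, had 47 and 42 counts against 24 and 38. Kcnq1ot1, the paternal RNA that silences the cluster in cis, had 26 and 15 counts against 12 and 21 and overlapped between the groups. The log2 ratio of Cdkn1c to Kcnq1ot1 was 5.08 and 3.82 in control and 5.60 and 6.31 in Ogt iKO, and the low counts of Kcnq1ot1 limit it.

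In the egg-marked Peg3 cluster on proximal chromosome 7, the paternal genes Peg3 and Usp29 were lower in value, though neither was called. The values of the paternal genes Mest, Plagl1 and Kcnq1ot1 in other egg-marked clusters were positive. Their signs turned with 1 library left out, at lowest to -0.11, -0.13 and -0.14. Peg3 (chr7:6703892-6730462), a zinc-finger protein, had 2325 and 2046 counts with 4-OHT, and 2180 and 2761 without it. Its log2 fold change of -0.26 (SE 0.10) missed the threshold narrowly (adjusted p 0.0511, edgeR), and it was called lower by DESeq2 (-0.29) and with 3 of the 4 libraries left out in turn. Without control replicate 2 it was -0.08 and not called. The divergent Usp29, a member of the ubiquitin protease family, had 84 and 80 counts against 102 and 95, and the Peg3 to Usp29 ratio overlapped between the groups. Zim1, a zinc-finger gene of the maternal copy, had 55 and 37 counts against 22 and 26 and rose by 0.85 (SE 0.28, adjusted p 0.0266, edgeR). That call was lost with DESeq2 and without any 1 of Ogt iKO replicate 1, control replicate 1 or control replicate 2.

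Solitary loci went separate ways. Gnas (chr2:174284320-174346744), whose main product is the G-protein subunit that activates adenylyl cyclase, had 9491 and 8603 counts with 4-OHT, and 4610 and 4515 without it. Its level rose from 296 CPM ± 2.48 to 555 CPM ± 0.371 (SD, n = 2), a log2 fold change of 0.91 with an SE of 0.054 (adjusted p 4.34e-06, edgeR). The table gives a single count for this locus, so its maternal, paternal and biallelic products cannot be told apart, and 22% of the exon length lies under antisense exons. Impact, an inhibitor of the translation kinase GCN2, had 3606 and 2984 counts against 2447 and 1937 and rose by 0.50 (SE 0.10, adjusted p 0.00225, edgeR). Zdbf2 (chr1:63200358-63314576), a gene with a zinc finger that was listed here as sperm-marked, had 2371 and 1761 counts against 2510 and 2408. Its log2 fold change was -0.34 with an SE of 0.090 (adjusted p 0.00958, edgeR), a call lost with library totals.

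Further abundant or well-known loci did not pass the test. Grb10, an adaptor that restrains insulin and IGF receptors, had 5337 and 5066 counts with 4-OHT, and 5055 and 4830 without it, a log2 fold change of -0.01 (SE 0.057). With library totals its sign turned and it was called higher (0.16). Mest had 4359 and 3588 counts against 4045 and 3012, at 0.09 (SE 0.12), and 23.1% of its exon length lies under Copg2, which fell by 1.07. Mest was called higher without control replicate 1 (0.30). Plagl1, a zinc-finger factor known to regulate other imprinted genes, had 251 and 181 counts against 191 and 203, at 0.05 (SE 0.15).

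Because a ratio of counts within a library does not depend on how libraries are scaled, neighbours of opposite parental expression were also compared directly. Of 7 such pairs, the Ogt iKO and control libraries did not overlap in 6, the exception being Igf2r with the sparse Airn. Of the 5 pairs expressed from the same copy, 3 did not overlap either (Peg10 to Sgce, Meg3 to Rian and Ndn to Magel2). Among all single genes tested 83.2% did not overlap, so the separation as such is no result about opposite copies. Ratios of maternal to paternal gene moved down for Ppp1r9a to Peg10 (by -1.55 on the log2 scale), Trappc9 to Peg13 (-1.24), Meg3 to Dlk1 (-1.19) and H19 to Igf2 (-0.25). They moved up for Cdkn1c to Kcnq1ot1 (1.5) and Zim1 to Peg3 (1.07). With 1 library left out in turn, the H19 to Igf2 difference ran from -0.38 (without control replicate 2) to -0.13 (without control replicate 1), and that of Cdkn1c to Kcnq1ot1 from 0.87 (without control replicate 2) to 2.14 (without control replicate 1). The Igf2r to Airn difference changed sign, from -2.30 to 0.69, and that of Meg3 to Rian was -0.26 without Ogt iKO replicate 2. An exact permutation test of 2 against 2 libraries cannot give a two-sided p below 0.333, and these 6 pairs each gave 0.333.

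**Figure D4:**
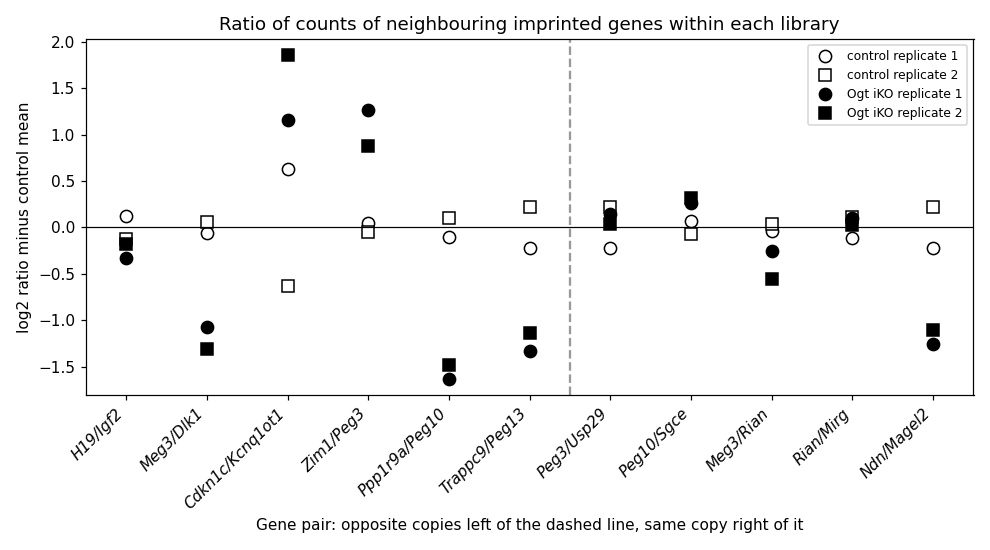
Log2 ratio of the counts of 2 neighbouring genes in each library, minus the mean of the controls (0.5 counts added to each). Pairs left of the dashed line are expressed from opposite copies and pairs right of it from the same copy. Filled symbols are Ogt iKO. Igf2r/Airn, whose groups overlap, is not drawn. Ppp1r9a/Peg10, Trappc9/Peg13, Meg3/Dlk1 and Ndn/Magel2 lie lowest, and Peg3/Usp29 and Rian/Mirg lie among the controls.

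The genes around the clusters were read from the same fit. Of the 32 nearest tested genes on either side of the 16 loci, 12 rose and 16 fell, with a median log2 fold change of -0.25. Of the 13 other tested genes inside or overlapping the loci, 5 rose and 3 fell. These sets are not separate and are no background free of imprinting, since 2 of the 32 also lie inside another locus, and 10 of the 32 and 7 of the 13 are on the list of other imprinted genes that follows. That list of 49 genes with reported imprinting, often limited to placenta or brain, had 38 tested genes, of which 15 rose and 12 fell, with a median of 0.10. The filter set the direction of Klf14, Slc22a3 and Tnnt3 among the 12 flanking genes that rose, of Aurkc among the 16 that fell, and of Klf14 and Slc22a3 among the 15, which leaves 9, 15 and 13. With these genes included, the shares that rose (39.5% of this list, 37.5% of the flanking and 38.5% of the inside genes) were near the 33.2% of all genes tested. Those that fell were 31.6%, 50.0% and 23.1%, against 32.0% of all. From the list of other imprinted genes Osbpl5 rose by 1.77, Sfmbt2 by 1.28 and Casd1 by 0.78, while Cobl fell by 1.33, Copg2 by 1.07 and Adam23 by 0.99.

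A list of 29 factors that bear on the methylation and silencing of imprints was read last, and it holds enzymes that remove methylation (Tet1, Tet2, Tet3) beside those that keep it. Of the 29, 19 fell (65.5%, against 32.0% of all genes tested) and 3 rose, and the median was -0.30 (log2). Zfp57, named here for its role though outside the naming rule, had 1677 and 1621 counts with 4-OHT, and 2370 and 2391 without it, a log2 fold change of -0.61 (adjusted p 4.95e-05, edgeR). Ezh2, the methyltransferase of Polycomb, fell by 1.49 and Cbx1, a heterochromatin protein, by 0.65. Among DNA methylation genes Dnmt3a fell by 0.96 and Uhrf1 by 0.90, whereas Dnmt3l rose by 1.31. Of the TET enzymes Tet1 and Tet2 fell, by 0.90 and 1.5, and Tet3 rose by 1.33, the former pair being named after their values were seen. Methylation at the imprinted regions was not analysed here.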

How the data were processed

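The authors deposited, for each of the 4 libraries, a table of raw counts per gene symbol without normalization. STAR, Picard and mm10 are listed in the submitters' processing notes. The counted strand, annotation and treatment of reads shared by 2 genes are not given in the sources used here. Each table held 25239 symbols and 0 rows that name no gene. A count of 0 allowed up to 3 counts, or 0.182 to 0.205 CPM by library totals without TMM factors, which covers counting error only.

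A quasi-likelihood model covered all 4 libraries (edgeR 4.0.16, R 4.3.3, TMM, filterByExpr, no covariate), and p values were adjusted by Benjamini-Hochberg over 14525 genes. The fit was tested on simulated data. CPM are TMM-scaled. Standard errors are the fold change divided by the root of F. Positions came from RefSeq and exon lengths and overlaps from GENCODE M21, both GRCm38, the assembly of mm10. The parental copy and the cluster of each gene were written down from textbook knowledge. Named genes are all listed imprinted genes, up to 6 genes of each other list by adjusted p, and the nearest tested neighbours. 1 entry of the further list was dropped for uncertain imprinting. Members, lists and tests were chosen with earlier results of these data known. Alternatives were RLE factors, library totals, DESeq2 1.42.0, 2 other filters, a robust spread, a replicate block, an adjusted p under 0.01 and each library left out.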

Additional observations from a re-analysis of the deposited data

How the results depend on the processing

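Across all alternatives run, 16 to 19 imprinted genes were called higher, against 18. The 18 include Dio3, whose direction the filter on low counts set. Scaling by library totals, under which the median over all genes was 0.19 in place of 0.02 (log2), left 1 imprinted gene called lower in place of 5 (0 paternal in place of 1 and 1 maternal in place of 4), and moved the paternal median from 0.68 to 0.85 and the maternal one from 0.11 to 0.28. All 18 genes called higher were also called higher under that scaling. The signs of Grb10 (0.16), Rian (0.12) and Mirg (0.048) turned. Grb10 also turned with a CPM filter (0.0032). With RLE factors, DESeq2 and the replicate block, 2 paternal genes were called lower, the added one being Peg3. An adjusted p under 0.01 left 2 genes called lower, 1 of them maternal. Without the genes imprinted in some tissues only, the maternal median was 0.44. With 1 library left out, 3 to 5 genes were called lower, of which 1 to 2 were paternal and 2 to 3 maternal, the maternal median ran from -0.0046 to 0.14, and the signs turned for Igf2r (-0.11 to 0.64), Kcnq1ot1 (-0.14 to 0.68), Grb10 (-0.063 to 0.032), Plagl1 (-0.13 to 0.18), Asb4 (-0.041 to 0.52) and Mest (-0.11 to 0.30). In such fits the lone library of a group is assumed to vary like the other group, and the controls varied less than the Ogt iKO pair (chi-square per degree of freedom 4.47 and 7.43), so calls without an Ogt iKO library are made more easily. None of these 6 was called in the fit of 4 libraries. The cause of these shifts was not tested. The replicate block added Igf2r (0.28) to the higher calls and lost 0 calls. Same-numbered libraries deviated together with a correlation of 0.086 across genes, so the numbers were not taken as pairs. Each table used holds a single count column, so a comparison of strand settings was not run.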
